A study of Mus musculus with 8 samples.

Results

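Early transposons (ETn) and MusD elements are long terminal repeat (LTR) retrotransposons of the mouse that belong to the class II endogenous retroviruses, the ERVK family of the repeat annotation. MusD elements carry retroviral coding sequence, whereas ETn elements have lost it and depend on proteins supplied by other elements. They are known for new insertions that have mutated mouse genes, and in mESCs they are repressed by KRAB zinc finger proteins, TRIM28 and the H3K9 methyltransferase SETDB1. The ETn/MusD members of the RNA-seq data were the transposable element subfamilies of family ERVK whose name contains ETn or ETN. There were 5 of them among 285 ERVK subfamilies and 1153 subfamilies in all: MMETn-int, ETnERV-int, ETnERV2-int and ETnERV3-int, which stand for the internal part between the LTRs, and RLTRETN_Mm, an LTR. Each subfamily pools its copies across the genome, so a count has no single position, and copies inside or next to genes are included. The names are those of the repeat annotation and were not checked against sequence here.

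Poly(A) RNA was sequenced from 8 libraries of mouse embryonic stem cells (mESCs), 2 biological replicates for each of 4 conditions. The cells of every condition, controls included, were of the same line, #33-6, in which Setdb1 can be deleted by 4-hydroxytamoxifen (4-OHT). WT mESCs received no treatment. UNC0642-treated mESCs received 2 µM UNC0642, an inhibitor of the H3K9 methyltransferases G9a and GLP, for 3 days. Setdb1 KO mESCs received 800 nM 4-OHT for 5 days. UNC0642-treated Setdb1 KO mESCs, the combined condition, received 800 nM 4-OHT and then 2 µM UNC0642 for 3 days; the labels give 2 days of 4-OHT before the inhibitor. Only 1 line was studied, and no library of 4-OHT without the conditional allele was used here.

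Library totals lay between 11702590 and 26807807 counts. The detection floor was taken as 3 counts, worth 0.112 to 0.256 counts per 1e6 counts (CPM) before normalisation, which covers counting error only. All other CPM values are normalised. Transposable elements took 2.77 to 17.1% of a library. Setdb1 itself (chr3:95323525-95357202, minus strand, GRCm38) was at 169 and 127 CPM in the WT replicates 1 and 2, and at 130 and 86.3 CPM in the UNC0642-treated ones. It was at 47.3 and 51.0 CPM in Setdb1 KO cells and at 61.1 and 34.1 CPM in the combined condition. The 4 libraries with 4-OHT were thus the 4 lowest for Setdb1, although counts over the whole gene do not resolve the deleted exons. The 8 pluripotency genes examined (Pou5f1, Nanog, Sox2 and others) summed to 3749 to 5727 CPM in every library, and 0 of 8 passed the test in any comparison. The 8 fibroblast genes summed to 8.76 to 24.4 CPM, with Lum at 0 in 4 libraries and Dcn at 0 in 3. The 8 trophectoderm genes summed to 27.4 to 134 CPM, and the 8 primitive endoderm genes to 65.2 and 301 CPM in WT cells, 178 and 255 CPM in UNC0642-treated cells, 74.5 and 105 CPM in Setdb1 KO cells and 54.1 and 79.2 CPM in the combined condition. Of these 3 lists 0 genes passed without the replicate number as a block. With the block, Lama1 of the primitive endoderm list was lower than in WT cells in Setdb1 KO cells (log2 -1.75, blocked edgeR adjusted p = 0.048) and in the combined condition (-1.58, blocked edgeR adjusted p = 0.032). There Eomes of trophectoderm was lower (-1.77, blocked edgeR adjusted p = 0.0347) and Lum of fibroblasts, at 0 in both WT libraries and at 2.91 and 1.43 CPM, was higher (blocked edgeR adjusted p = 0.0198). Relative to UNC0642-treated cells, Lama1 and Gata4 were lower and Lum higher with the block in the combined condition, and Lama1 was lower and Krt18 higher in Setdb1 KO cells. The part of these cell types in the ETn/MusD values was not tested. In bulk RNA, fewer cells with an active element and less RNA per cell cannot be told apart.

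All 5 ETn/MusD subfamilies passed the filter on low counts, from 125 counts for ETnERV3-int in a WT library to 218638 for MMETn-int in a Setdb1 KO library. Levels are not compared between subfamilies, since a subfamily's level depends on the total length of its copies.

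MMETn-int, named for the ETn internal sequence, was at 2091 and 1319 CPM in WT cells and at 2565 and 1122 CPM in UNC0642-treated cells. It stood at 9253 and 7475 CPM in Setdb1 KO cells and at 14204 and 6354 CPM in the combined condition. The 4 libraries with 4-OHT were all above the 4 without it, and the WT and UNC0642-treated ranges overlapped. The widest gap between replicates in CPM was in the combined condition, where replicate 1 was the highest of the 8 libraries and replicate 2 was below both Setdb1 KO libraries.

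ETnERV-int was at 391 and 357 CPM in WT cells and at 404 and 281 CPM in UNC0642-treated cells. It was at 2745 and 2982 CPM in Setdb1 KO cells and at 3693 and 2227 CPM in the combined condition. Again the combined condition spanned both Setdb1 KO libraries, with replicate 1 above and replicate 2 below them.

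ETnERV2-int was at 86.6 and 50.6 CPM in WT cells, 81.3 and 49.2 CPM in UNC0642-treated cells, 588 and 334 CPM in Setdb1 KO cells and 531 and 359 CPM in the combined condition. Replicate 1 was the higher one in all 4 conditions.

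ETnERV3-int was at 10.9 and 6.71 CPM in WT cells and at 25.2 and 12.4 CPM in UNC0642-treated cells, where both libraries were above both WT libraries. It reached 120 and 31.4 CPM in Setdb1 KO cells and 67.4 and 41.8 CPM in the combined condition. The Setdb1 KO replicates differed the most here, with replicate 2 at 0.263 of replicate 1, and the combined condition lay between them.

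RLTRETN_Mm, the LTR, was at 15.8 and 11.04 CPM in WT cells and at 17.0 and 9.57 CPM in UNC0642-treated cells. It was at 105.1 and 104.6 CPM in Setdb1 KO cells and at 121 and 109 CPM in the combined condition. Its Setdb1 KO replicates were the closest pair of any subfamily, and both libraries of the combined condition were above both Setdb1 KO libraries.

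**Figure D1:**
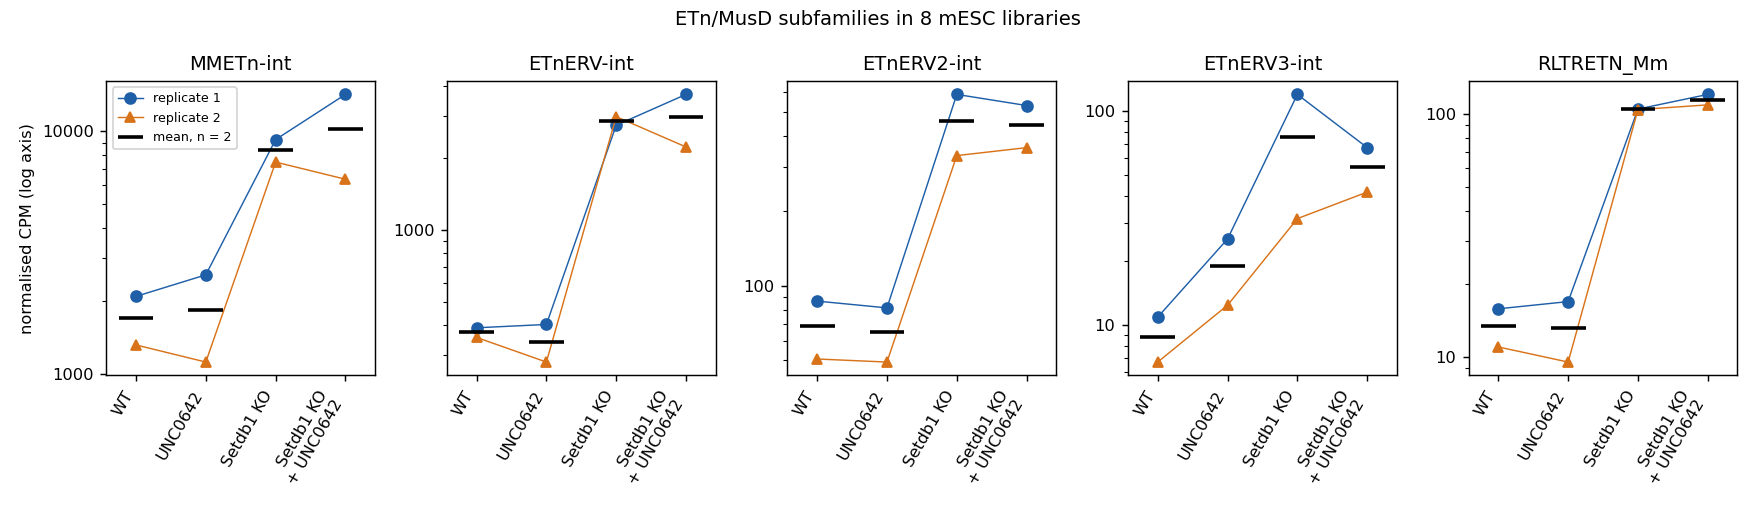
Normalised counts per 1e6 counts (CPM, vertical log axis, with its own range in each panel) of the 5 ETn/MusD subfamilies in 4 conditions of mESCs; circles and triangles are replicates 1 and 2, joined across conditions, and bars are means of 2 libraries. In each panel the 4 Setdb1 KO libraries lie above the 4 others, and the WT and UNC0642-treated points overlap except for ETnERV3-int.

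The first comparison asked how the loss of Setdb1 changed ETn/MusD RNA. Relative to WT cells, ETnERV-int rose 7.66-fold (log2 fold change 2.94, SE 0.52, edgeR adjusted p = 0.0333), ETnERV2-int 6.72-fold (2.75, SE 0.53, edgeR adjusted p = 0.0482) and RLTRETN_Mm 7.82-fold (2.97, SE 0.44, edgeR adjusted p = 0.0166) in Setdb1 KO cells. ETnERV3-int had a log2 fold change of 3.11 (SE 0.70, edgeR adjusted p = 0.0894) and MMETn-int of 2.29 (SE 0.68, edgeR adjusted p = 0.220, 95% interval 0.77 to 3.82), which did not pass. Thus 3 of 5 passed an adjusted p of 0.05 and a fold change of 2, where 1.11% of the 16245 genes and subfamilies tested did so in the same direction. Replicates of the same number deviated together (Pearson r 0.285 to 0.663 across genes). The lowest values were 0.285 for WT and Setdb1 KO cells, the pair compared here, and 0.351 for WT cells and the combined condition. Once the replicate number was fitted as a block, 5 of 5 passed, against 3.77% of all features. MMETn-int was then at 2.35 (SE 0.29, edgeR adjusted p = 0.00338) and ETnERV3-int at 2.89 (SE 0.36, edgeR adjusted p = 0.00321). DESeq2 on all libraries called 5 of 5, against 3.32%. Without the block, 0 of 5 passed when WT replicate 1, WT replicate 2 or Setdb1 KO replicate 1 was left out. With the block, all 5 passed whichever library was left out. The size for ETnERV3-int rested on single libraries: without the block its log2 fold change was 1.84 without Setdb1 KO replicate 1 and 3.75 without Setdb1 KO replicate 2.

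Both Setdb1 KO libraries were above both WT libraries for 5 of 5 subfamilies, which was so for 17.5% of all features. Each subfamily was also 2-fold or more higher in both replicates when each was set against the WT library of its own number, as were 8.11% of all features. These ratios were 2.81 and 3.06 on the log2 scale for ETnERV-int, 2.76 and 2.72 for ETnERV2-int, and 2.73 and 3.24 for RLTRETN_Mm. They were 2.15 and 2.50 for MMETn-int and 3.46 and 2.23 for ETnERV3-int. The last subfamily thus had the largest ratio of the set in replicate 1 and the smallest in replicate 2. Among the 932 subfamilies tested, ordered by fold change, the 5 took the places 49 (ETnERV3-int), 56 (RLTRETN_Mm), 60 (ETnERV-int), 70 (ETnERV2-int) and 125 (MMETn-int).

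The same question was put in the presence of UNC0642. Relative to UNC0642-treated cells, the combined condition had 8.64-fold more ETnERV-int (log2 3.11, SE 0.53, edgeR adjusted p = 0.0297), 6.81-fold more ETnERV2-int (2.77, SE 0.53, edgeR adjusted p = 0.0475) and 8.68-fold more RLTRETN_Mm (3.12, SE 0.45, edgeR adjusted p = 0.0156). MMETn-int was at 2.48 (SE 0.68, edgeR adjusted p = 0.173) and ETnERV3-int at 1.54 (SE 0.66, edgeR adjusted p = 0.520). Here 3 of 5 passed against 1.13% of all features, and 4 of 5 by DESeq2 against 3.21%. With the block it was 5 of 5 against 3.79%, where MMETn-int had an edgeR adjusted p of 0.00260 and ETnERV3-int of 0.0332. The number without the block fell to 0 without either UNC0642-treated library, and to 1 without WT replicate 1, WT replicate 2 or UNC0642-treated Setdb1 KO replicate 1. It was at least 4 with the block whichever library was left out. Without the block, MMETn-int was at 1.78 without UNC0642-treated Setdb1 KO replicate 1 and at 3.19 without UNC0642-treated replicate 1, and the latter took ETnERV3-int to 2.13.

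Compared with WT cells, the combined condition had 7.92-fold more ETnERV-int (log2 2.98, SE 0.52, edgeR adjusted p = 0.0153), 6.49-fold more ETnERV2-int (2.70, SE 0.53, edgeR adjusted p = 0.0242) and 8.58-fold more RLTRETN_Mm (3.10, SE 0.45, edgeR adjusted p = 0.00736). ETnERV3-int was at 2.64 (SE 0.69, edgeR adjusted p = 0.0693) and MMETn-int at 2.59 (SE 0.69, edgeR adjusted p = 0.0714). The 3 of 5 that passed compare with 3.60% of all features, the 5 of 5 with the block with 9.47%, and the 5 of 5 by DESeq2 with 6.62%. With the block, ETnERV3-int had an edgeR adjusted p of 0.00232 and MMETn-int of 0.00129. Without the block, 0 passed when either WT library was left out. With it, 5 passed whichever library was left out. MMETn-int was at 1.90 without UNC0642-treated Setdb1 KO replicate 1 in the fit without the block. The 5 took the places 104 to 139 among the 932 subfamilies in this comparison.

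The 4 libraries with 4-OHT were above all 4 libraries without it for each of the 5 subfamilies, and for 6.56% of all features. Setdb1 KO cells set directly against UNC0642-treated cells gave log2 differences of 3.06 for ETnERV-int (SE 0.52, edgeR adjusted p = 0.0437) and 2.98 for RLTRETN_Mm (SE 0.44, edgeR adjusted p = 0.0255), the 2 of 5 that passed against 0.529% of all features. ETnERV2-int was at 2.82 (edgeR adjusted p = 0.0689), MMETn-int at 2.18 (edgeR adjusted p = 0.354) and ETnERV3-int at 2.01 (edgeR adjusted p = 0.433). With the block 5 of 5 passed against 2.22%, the largest edgeR adjusted p being 0.0279 for ETnERV3-int. DESeq2 called 4 of 5, against 1.87%. The number in edgeR without the block fell from 2 to 0 without either library of these conditions and to 1 without either WT library, and with the block it fell to 3 without UNC0642-treated replicate 2. Without the block, ETnERV3-int was at 0.73 without Setdb1 KO replicate 1, 2.66 without Setdb1 KO replicate 2 and 2.61 without UNC0642-treated replicate 1, which also took MMETn-int to 2.90.

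**Figure D2:**
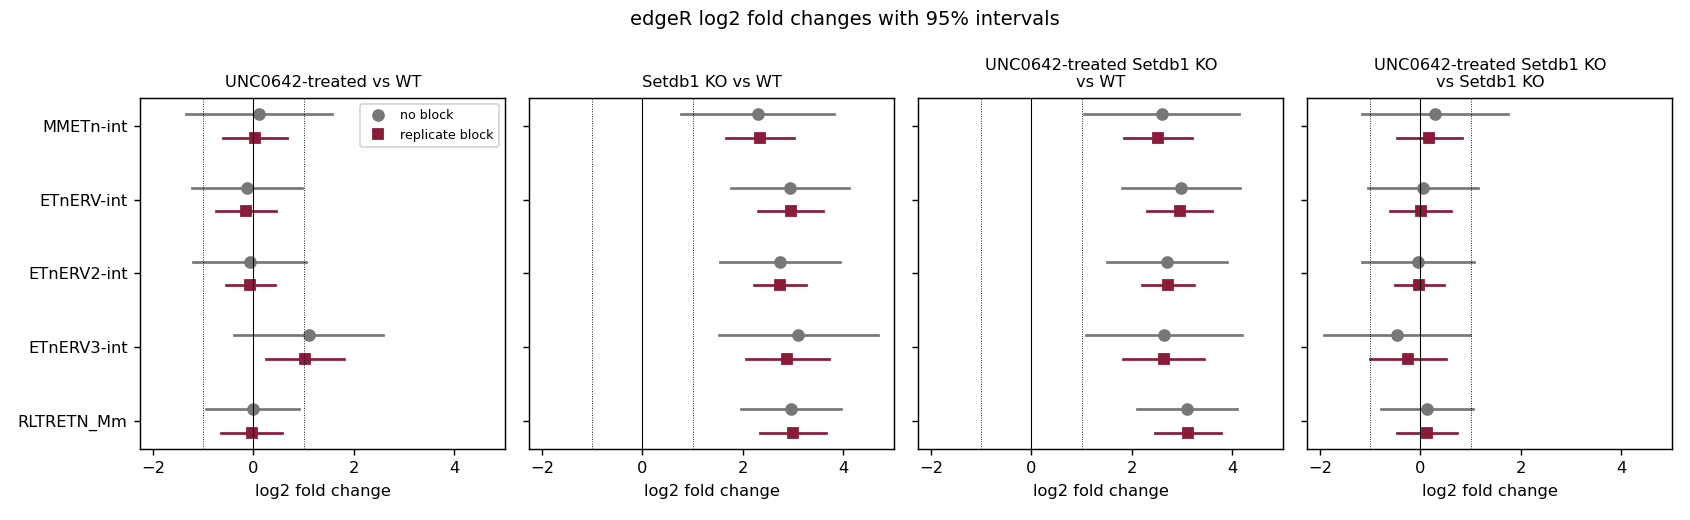
Log2 fold changes (horizontal axis) of the 5 ETn/MusD subfamilies in 4 comparisons, with 95% intervals, from edgeR without (grey circles) and with (red squares) the replicate number as a block; dotted lines mark a fold change of 2 in either direction. In both comparisons of Setdb1 KO cells with WT cells the intervals lie above 0, and in the comparisons for UNC0642 alone they span 0 apart from ETnERV3-int with the block (0.26 to 1.81).

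The next comparison asked whether inhibition of G9a/GLP alone changed ETn/MusD RNA. In UNC0642-treated cells 0 of 5 subfamilies passed, and 0 of 5 had an unadjusted p under 0.05 in edgeR without the block. With the block and with DESeq2 0 of 5 passed as well, although ETnERV3-int had an unadjusted p of 0.0150 in edgeR with the block. Of all features, 0% were higher at these thresholds without the block, 0.166% with it and 0.739% by DESeq2. The log2 fold changes were -0.13 for ETnERV-int (95% interval -1.22 to 0.97), -0.07 for ETnERV2-int (-1.19 to 1.05), 0.11 for MMETn-int (-1.34 to 1.57) and -0.02 for RLTRETN_Mm (-0.95 to 0.92). With the block these intervals narrowed to -0.75 to 0.46, -0.55 to 0.42, -0.60 to 0.68 and -0.65 to 0.58. A change of 2-fold in either direction lay outside the intervals of these 4 subfamilies with the block, and without it was inside the intervals of all but RLTRETN_Mm on at least 1 side.

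ETnERV3-int had the largest fold change of the 5 and did not pass. It was 2.14-fold higher in UNC0642-treated cells (log2 1.10, SE 0.66, 95% interval -0.38 to 2.59, edgeR adjusted p = 1). With the block it was at 1.03 (SE 0.34, edgeR adjusted p = 0.422, 95% interval 0.26 to 1.81). Without UNC0642-treated replicate 1 it was at 0.50 in the fit without the block. Both UNC0642-treated libraries were above both WT libraries for this subfamily alone among the 5, a pattern shared by 13.7% of all features. Its counts were 125 and 186 in WT cells and 537 and 344 in UNC0642-treated cells. It was in place 79 of the 932 subfamilies in this comparison, while the other 4 members were in places 716 to 842. The share of ETn/MusD counts that ETnERV3-int took was 0.402 ± 0.0244% in WT cells (mean ± SD, n = 2 libraries) and 0.828 ± 0.0164% in UNC0642-treated cells. It was 0.610 ± 0.457% in Setdb1 KO cells and 0.411 ± 0.0688% in the combined condition.

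Genes that mark 2-cell-like cells, a rare state of mESC cultures, were examined beside these values. Their 8 genes (Zscan4c, Zscan4d, Zscan4f, Tcstv1, Tcstv3, Zfp352, Dux and Usp17la) summed to 8.79 and 25.8 CPM in WT cells, 766 and 248 CPM in UNC0642-treated cells, 362 and 147 CPM in Setdb1 KO cells and 1372 and 565 CPM in the combined condition. Of the 8, 1 passed in Setdb1 KO cells (7 with the block), 7 in the combined condition (8 with the block) and 0 in UNC0642-treated cells (1 with the block), each higher than in WT cells. Tcstv3 and Zfp352 were at 0 in WT replicate 1. The sum of these genes was higher in each UNC0642-treated library than in the Setdb1 KO library of the same number. The summed ETn/MusD level was 3092 and 1474 CPM in UNC0642-treated cells and 12811 and 10926 CPM in Setdb1 KO cells. ETnERV3-int was only the small share of this sum given above, so the sum does not describe that subfamily. The part of 2-cell-like cells in the ETnERV3-int values, or in those of the other ETn/MusD subfamilies, was not tested.

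The last comparison asked whether UNC0642 added to the loss of Setdb1. By the labels, Setdb1 KO cells and the combined condition also differed in the treatment that deletes Setdb1. It was given for 5 days in Setdb1 KO cells, and for 2 days before UNC0642 in the combined condition. This comparison therefore cannot separate UNC0642 from that difference in days. With Setdb1 KO cells as the reference for the combined condition, 0 of 5 subfamilies passed in edgeR with or without the block or in DESeq2, and 0 of 5 had an unadjusted p under 0.05 in either edgeR fit. The shares of all features that were higher were 0% without the block, 0.123% with it and 0.560% by DESeq2. The log2 differences were 0.30 for MMETn-int (95% interval -1.16 to 1.75), 0.05 for ETnERV-int (-1.04 to 1.14), -0.05 for ETnERV2-int (-1.17 to 1.07), -0.47 for ETnERV3-int (-1.92 to 0.99) and 0.13 for RLTRETN_Mm (-0.79 to 1.06). With the block they were 0.18 (-0.46 to 0.82), 0.00 (-0.61 to 0.61), -0.02 (-0.50 to 0.46), -0.26 (-1.01 to 0.50) and 0.13 (-0.47 to 0.72). Only RLTRETN_Mm was higher in both libraries of the combined condition than in both Setdb1 KO libraries, a pattern of 12.2% of all features.

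The summed level of the 5 was 12811 and 10926 CPM in Setdb1 KO cells and 18615 and 9091 CPM in the combined condition, so that replicate 1 went up and replicate 2 went down. By replicate, the CPM of the combined condition minus the sum of the WT level and both separate changes was 4477 and -923 for MMETn-int, 935 and -679 for ETnERV-int, -52.3 and 26.9 for ETnERV2-int and -66.5 and 4.72 for ETnERV3-int. Its sign thus differed between replicates for these 4. For RLTRETN_Mm it was 14.5 and 6.28. These values and the interaction that follows hold the same difference in days of 4-OHT. The interaction of both treatments on the log2 scale was 0.19 for MMETn-int, 0.17 for ETnERV-int, 0.02 for ETnERV2-int, -1.57 for ETnERV3-int (SE 0.92, 95% interval -3.65 to 0.51) and 0.15 for RLTRETN_Mm. It passed for 0 of 5, with or without the block, as for 0% of all features. Without the block 0 of 5 had an unadjusted p under 0.05, and with it ETnERV3-int did (log2 -1.29, SE 0.48, unadjusted p = 0.0252 in edgeR, edgeR adjusted p = 1). Without the block it was -0.31 without Setdb1 KO replicate 1 and -2.21 without Setdb1 KO replicate 2 and -0.98 without UNC0642-treated replicate 1.

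The ETn/MusD subfamilies made up 0.255 and 0.192% of all counts in WT cells, 0.290 and 0.177% in UNC0642-treated cells, 1.13 and 1.21% in Setdb1 KO cells and 1.51 and 0.942% in the combined condition. Of the ERVK counts they held 43.6 and 44.7% in WT cells, 41.6 and 35.1% in UNC0642-treated cells, 36.0 and 31.2% in Setdb1 KO cells and 34.0 and 29.6% in the combined condition. Their part of ERVK RNA was thus lower in each Setdb1 KO library than in either WT library, while their own level was higher.

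Within the 5, MMETn-int held 78.1 ± 3.48% of the counts in WT cells (mean ± SD, n = 2 libraries), 79.5 ± 4.85% in UNC0642-treated cells, 70.3 ± 2.70% in Setdb1 KO cells and 73.1 ± 4.53% in the combined condition. ETnERV-int held 17.8 ± 3.80%, 16.1 ± 4.26%, 24.4 ± 4.14% and 22.2 ± 3.3% in the same order. The LTR had 6.14 and 6.37 counts per 1000 counts of the internal subfamilies in WT cells and 5.52 and 6.53 in UNC0642-treated cells. It had 8.27 and 9.66 in Setdb1 KO cells and 6.53 and 12.2 in the combined condition. Both Setdb1 KO libraries were above the 4 libraries without 4-OHT in this ratio, and replicate 1 of the combined condition was level with an UNC0642-treated library. Related copies share sequence, and TEtranscripts divides such reads among them, so the 5 subfamilies are not independent of each other.

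Set beside other ERVs, the ETn/MusD subfamilies had a median log2 fold change of 2.94 in Setdb1 KO cells over WT cells. The medians were 2.52 for 25 IAP subfamilies, active ERVK elements of the mouse, 3.12 for 13 MMERVK10 and RLTR10 subfamilies, 1.21 for the other 230 ERVK subfamilies and 1.06 for 94 ERVL subfamilies, which include MERVL of 2-cell embryos. The median was 0.96 over all 932 subfamilies and -0.02 over all features. The numbers that passed were 3 of 5 for ETn/MusD, 10 of 25 for IAP, 7 of 13 for MMERVK10 and RLTR10, 14 of 230 for other ERVK and 0 of 94 for ERVL, where 19 had an unadjusted p under 0.05 in edgeR. Over all 932 subfamilies it was 46, and over all features 1.11%. With the block the numbers were 5 of 5, 21 of 25, 10 of 13, 59 of 230 and 4 of 94 in the same order, 186 of 932 subfamilies and 3.77% of all features. In the combined condition over WT cells the medians were 2.70 for ETn/MusD, 3.29 for IAP, 3.89 for MMERVK10 and RLTR10, 1.38 for other ERVK and 1.27 for ERVL. There 3 of 5 ETn/MusD, 21 of 25 IAP, 11 of 13 MMERVK10 and RLTR10, 36 of 230 other ERVK and 3 of 94 ERVL subfamilies passed, 113 of 932 in all, against 3.60% of all features. With the block it was 5 of 5, 24 of 25, 13 of 13, 123 of 230 and 26 of 94, 351 of 932 in all, against 9.47% of all features. For IAP the number thus went from 10 in Setdb1 KO cells to 21 in the combined condition without the block, and from 21 to 24 with it. Both comparisons share the WT libraries, and differences between groups of subfamilies were not tested.

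**Figure D3:**
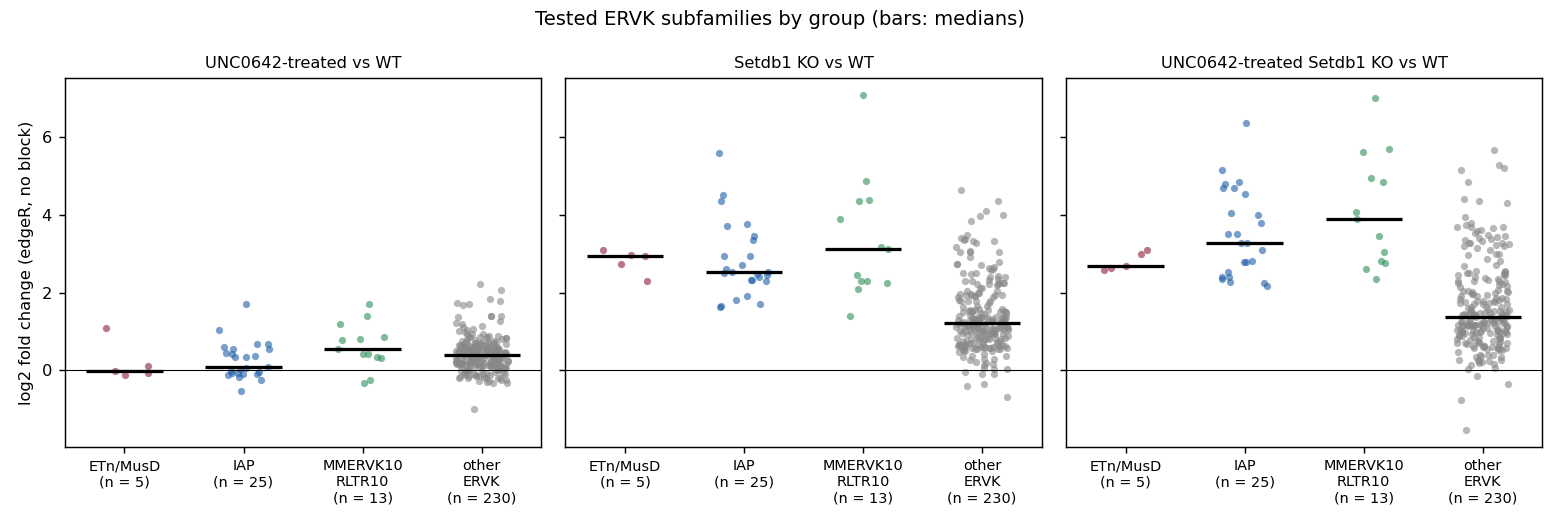
Log2 fold changes over WT cells (vertical axis, edgeR without the block) of each ERVK subfamily tested, in 4 groups, for UNC0642-treated cells, Setdb1 KO cells and the combined condition; each point is a subfamily and bars are medians. The ETn/MusD points lie between 2.29 and 3.11 in Setdb1 KO cells and between 2.59 and 3.10 in the combined condition, inside the range of the IAP points.

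Summed over each group, the log2 ratio of Setdb1 KO cells to the WT library of the same replicate was 2.30 and 2.65 for ETn/MusD, 3.66 and 4.63 for IAP and 5.55 and 6.67 for MMERVK10 and RLTR10. In the combined condition the ratios were 2.84 and 2.38 for ETn/MusD, 4.71 and 4.50 for IAP and 6.22 and 6.02 for MMERVK10 and RLTR10. ETn/MusD had the smallest ratio of these 3 groups in each of the 4 libraries, although its median subfamily was above that of IAP in Setdb1 KO cells. Other ERVK lay below ETn/MusD, at 1.84 and 1.65 in Setdb1 KO cells and 2.16 and 2.07 in the combined condition. ERVL was below it in Setdb1 KO cells (2.06 and 0.98) and above it in the combined condition (3.99 and 2.88). In UNC0642-treated cells the ratios were 0.25 and -0.24 for ETn/MusD, 0.07 and 0.00 for IAP and 3.05 and 1.96 for ERVL, so that ERVL was the group with the largest ratio there. These summed ratios were not tested.

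**Figure D4:**
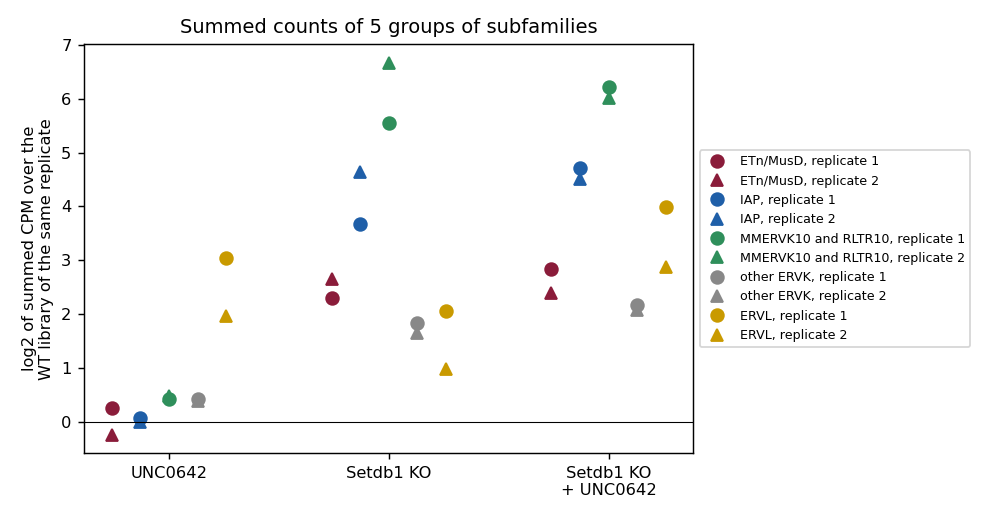
Log2 ratio of the summed normalised counts of 5 groups of subfamilies (vertical axis) to the WT library of the same replicate number, in 3 conditions; circles and triangles are replicates 1 and 2. The ETn/MusD points are near 0 in UNC0642-treated cells and between 2.30 and 2.84 in both Setdb1 KO conditions, where IAP reaches 4.71 and MMERVK10 and RLTR10 reach 6.67.

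The features whose pattern over the 6 treated libraries was most like that of the averaged ETn/MusD subfamilies were found by the root mean square difference in log2 CPM relative to WT, computed with a prior count of 2. The median of this difference was 1.55 over 927 other subfamilies and 2.43 over 15313 genes. The members themselves were 0.159 (ETnERV2-int) to 0.647 (ETnERV3-int) from their own average, so that ETnERV3-int was farther from it than the features named next. The closest subfamilies were MMERVK9E_I-int (0.284), ERVB7_1-LTR_MM (0.334) and RLTR13D6 (0.337), all ERVK, with RLTR30C_MM of family ERV1 (0.322) and the DNA transposon Charlie2b (0.337). RLTR30C_MM had 3 to 7 counts in each library without 4-OHT, near the prior count.

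The closest genes were Clca4 (0.309), Rnf17 (0.348), Cmah (0.348) and 2810474O19Rik (0.360). Ugt3a2 was also among the first 5, but its level in the libraries without 4-OHT is set by the prior count alone. Rnf17 (chr14:56402581-56525032, GRCm38), a Tudor domain protein of germ cells, was at 69.9 and 37.8 CPM in WT cells and 85.5 and 44.9 CPM in UNC0642-treated cells. It was at 412 and 280 CPM in Setdb1 KO cells and 260 and 227 CPM in the combined condition. Cmah (chr13:24327404-24477377), a hydroxylase that modifies sialic acid, was at 233 and 129 CPM in WT cells, 323 and 111 CPM in UNC0642-treated cells, 1149 and 779 CPM in Setdb1 KO cells and 1715 and 669 CPM in the combined condition. Ugt3a2 (chr15:9335550-9370955) had 0 counts in the 4 libraries without 4-OHT and 15, 8, 9 and 9 counts in the 4 with it, so its place among the closest genes is not read as likeness. These genes were chosen for their likeness, so their levels are a description.

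The gene 2810474O19Rik is Resf1 (chr6:149309414-149335663), a retroelement silencing factor that acts with SETDB1, and was also on the list of silencing genes. It was at 126 and 107 CPM in WT cells, 209 and 143 CPM in UNC0642-treated cells, 1051 and 432 CPM in Setdb1 KO cells and 1174 and 602 CPM in the combined condition. All 4 libraries with 4-OHT were above the others. Its log2 fold change was 2.67 in Setdb1 KO cells (SE 0.59, edgeR adjusted p = 0.0821, or 0.00259 with the block) and 2.93 in the combined condition (SE 0.59, edgeR adjusted p = 0.0274).

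Among 54 genes on 7 lists of the ETn/MusD silencing and restriction pathways, 53 were tested. Without the block, 0 passed in Setdb1 KO cells and 1, Resf1, in the combined condition over WT cells. With the block, 4 of 53 (7.55%) were higher in Setdb1 KO cells against 3.77% of all features, and 1 (1.89%) was lower against 0.486%. In the combined condition 7 (13.2%) were higher against 9.47% of all features, and 5 (9.43%) lower against 6.44%. The 1 lower gene in Setdb1 KO cells was Setdb1 itself, whose fall was set by the design. Setdb1 was also 1 of the 5 lower in the combined condition. In UNC0642-treated cells 0 passed in either fit. The shares in the combined condition were near those of all features, so the values of single genes are given as a description and nothing is read from them about the pathway. Apart from Resf1, the listed genes that passed did so with the block alone.

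Of the H3K9 methyltransferases and their partners, Setdb1 fell in Setdb1 KO cells by 1.56 (log2, SE 0.27) with the block (edgeR adjusted p = 0.0164), and did not pass without it (edgeR adjusted p = 0.181). Atf7ip, the partner that stabilises SETDB1, rose by 1.43 there (SE 0.30, blocked edgeR adjusted p = 0.0339) and by 1.31 in the combined condition (edgeR adjusted p = 0.0223 with the block). Ehmt2, which encodes G9a, fell by 1.20 in the combined condition (SE 0.28, blocked edgeR adjusted p = 0.0235, or 0.185 without the block). Ehmt1, which encodes GLP, had a log2 fold change of -0.42 there (blocked edgeR adjusted p = 0.267, or 0.650 without the block). Trim28, the corepressor of KRAB zinc finger proteins, had a log2 fold change of -0.17 in Setdb1 KO cells (edgeR adjusted p = 1). It was -0.08 in the combined condition (edgeR adjusted p = 0.968), and the SE was 0.58 in both. Its WT replicates were far apart, at 395 and 1301 CPM, beside 707 and 800 CPM in Setdb1 KO cells. The combined condition was at 759 and 840 CPM. In both conditions replicate 1 was thus above and replicate 2 below the WT library of its own number.

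Among the KRAB zinc finger genes, Zfp809, known to recruit silencing to retroviral primer binding sites, was at 26.2 and 25.6 CPM in WT cells, 108 and 50.9 CPM in Setdb1 KO cells and 118 and 69.2 CPM in the combined condition. It rose with the block by 1.49 (edgeR adjusted p = 0.0249) and 1.77 (edgeR adjusted p = 0.00598). Zfp932 rose by 1.26 (edgeR adjusted p = 0.0217 with the block) and 1.64 (edgeR adjusted p = 0.00344 with the block). Gm13051 passed in the combined condition (log2 1.66, edgeR adjusted p = 0.0122 with the block), and has close paralogs with which it may share reads. Zfp989, also on this list, was not analysed here.

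In the combined condition over WT cells, the histone H3.3 gene H3f3b (log2 1.50, edgeR adjusted p = 0.00949 with the block) and the antiviral zinc finger gene Zc3hav1 (1.20, edgeR adjusted p = 0.0438 with the block) were higher. The restriction factor genes Apobec3 (-1.39, edgeR adjusted p = 0.0166 with the block), Samhd1 (-1.18, edgeR adjusted p = 0.0203 with the block) and Mov10 (-1.01, edgeR adjusted p = 0.0364 with the block) were lower. Bst2 of the same list did not pass against WT cells. It was higher in Setdb1 KO cells than in UNC0642-treated cells (2.35, edgeR adjusted p = 0.0436 with the block). The lists of HP1 and HUSH (7 genes) and of DNA methylation (8 genes) had 0 genes that passed in either fit in any comparison. In Setdb1 KO cells over WT cells the HP1 and HUSH genes lay between -0.33 and 0.75 on the log2 scale (median -0.07) and the DNA methylation genes between -0.53 and 0.87 (median 0.29).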

How the data were processed

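Poly(A) RNA-seq libraries of 8 mESC samples, 2 per condition, were grouped by the treatment and title in the labels. According to the methods and the submitters' processing notes, the authors trimmed reads with Trim Galore 0.3.7, mapped them to GRCm38 (mm10) with TopHat2 and counted genes and transposable element subfamilies with TEtranscripts, which shares reads with several positions among copies. What was deposited are their raw counts, 1 per gene or subfamily, neither normalised nor filtered. For TEtranscripts the methods give default parameters and name no strand setting. Sense and antisense reads of an element were not separated here. How far reads of an overlapping gene enter the count of an element was not tested.

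The members, gene lists and tests were chosen with earlier results of these data known. The filter of low counts was filterByExpr (at least 10 counts, total of at least 15) and left 15313 genes and 932 subfamilies. An edgeR 4.0.16 quasi-likelihood model with TMM normalization and 1 coefficient per condition was fitted to all 8 libraries in R 4.3.3. P-values were adjusted by Benjamini-Hochberg over all 16245 features in each of 7 comparisons. To pass, a feature needed an adjusted p below 0.05 and a more than 2-fold change, computed with 0.125 as prior count. Values per library are TMM-normalised CPM. Intervals are at 95%. Replicate numbers are shared by all conditions in the labels. The deviation of replicate 1 from replicate 2 correlated between conditions (6 pairs, median Pearson r 0.587 across genes, which are not independent), so the numbers were taken to pair the samples and the fit with the replicate block is printed beside the calls and counts it changes. The variance between replicates was 123 to 194 times that of sampling noise (chi-square per degree of freedom). The labels do not say whether replicates came from separate cultures, and p-values measure the spread between these libraries. Named genes are the members, Setdb1, Ehmt1, Ehmt2, Trim28, listed genes that passed, and the 5 subfamilies and 5 genes most like the members. All genes that passed against WT mESCs are named, which for the restriction list is 1 more than the rule allows (Zc3hav1), chosen after its values were seen. Bst2, which passed against UNC0642-treated mESCs only, was also added after its values were seen.

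Alternatives were DESeq2 1.42.0, the compared libraries alone, the replicate block, other normalizations, no filter, thinned counts, other fold thresholds and leaving out each library. The scripts were tested on simulated data. Figures were drawn with matplotlib 3.10.9. Coordinates are from GENCODE M21. No repeat sequence was used here.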

Additional observations from a re-analysis of the deposited data

How the results depend on the processing

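In the 4 comparisons of libraries with and without 4-OHT, no alternative reversed a fold change of any of the 5 subfamilies. With 1 library left out, the highest log2 value was more than 1.5 times the lowest only for ETnERV3-int and MMETn-int. For ETnERV3-int the values were 1.84 to 3.75 in Setdb1 KO over WT mESCs and 0.73 to 2.66 over UNC0642-treated mESCs. They were 1.13 to 2.13 in the combined condition over the latter. For MMETn-int they were 1.90 to 3.07 in the combined condition over WT mESCs and 1.78 to 3.19 over UNC0642-treated mESCs. In Setdb1 KO mESCs over the latter they were 1.70 to 2.90. The other subfamilies moved too, with log2 2.28 to 3.19 for ETnERV2-int in Setdb1 KO over WT mESCs. In the combined condition over WT mESCs, ETnERV-int was at 2.57 to 3.31. RLTRETN_Mm was at 2.62 to 3.45 in Setdb1 KO over UNC0642-treated mESCs. The number that passed did vary. Against WT mESCs, Setdb1 KO mESCs had 3 of 5 subfamilies, and 5 with the replicate block, 5 with DESeq2 on all libraries, 5 with DESeq2 on the libraries compared and 0 at a fold change above 10, with 0 to 3 when 1 library was left out. The combined condition had 3, and 5 with the replicate block, 5 with either DESeq2 fit, 5 with no expression filter and 0 at a fold change above 10, with 0 to 4 when 1 library was left out. Against UNC0642-treated mESCs, the combined condition had 3, and 5 with the replicate block, 1 with edgeR on the libraries compared and 0 at a fold change above 10 (0 to 3 when 1 library was left out). Setdb1 KO mESCs had 2 there, and 5 with the replicate block, 4 with either DESeq2 fit, 1 with edgeR on the libraries compared and 0 at a fold change above 10 (0 to 2 when 1 library was left out). Leaving out 1 library within the replicate block was added after the data were seen and gave 5 to 5, 5 to 5, 4 to 5 and 3 to 5 in these comparisons in the same order. In the 3 other comparisons 0 of 5 passed under every alternative. Where a library was left out of its condition, the lone library was assumed to vary like the other conditions. The cause of these changes was not tested.

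The small differences turned in direction under some alternatives. With TMM factors from genes only, RLTRETN_Mm in UNC0642-treated mESCs was at 0.011. With total counts normalization, ETnERV-int in the combined condition over Setdb1 KO mESCs was at -0.11 and the interaction of ETnERV2-int was at -0.090. That interaction was -0.015 with no expression filter. Leaving out 1 library, UNC0642-treated over WT mESCs ran from -0.41 to 0.085 for ETnERV-int, -0.47 to 0.37 for ETnERV2-int, -0.60 to 0.57 for MMETn-int and -0.48 to 0.32 for RLTRETN_Mm. The combined condition over Setdb1 KO mESCs ran from -0.37 to 0.41 for ETnERV-int, -0.39 to 0.41 for ETnERV2-int, -1.12 to 0.79 for ETnERV3-int and -0.40 to 0.80 for MMETn-int. The interaction ran from -0.25 to 0.54 for ETnERV-int, -0.43 to 0.47 for ETnERV2-int, -2.21 to -0.31 for ETnERV3-int, -0.52 to 0.89 for MMETn-int and -0.16 to 0.61 for RLTRETN_Mm. Total counts normalization moved the median gene by up to -0.21 on the log2 scale (combined condition over UNC0642-treated mESCs). With 2 libraries a condition, the spread between replicates and not the depth set the width of the intervals.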
